A study of Aedes aegypti with 12 samples.

Results

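Sur (LOC5577471), listed as ATP-binding cassette sub-family C member Sur, and the inward rectifier potassium channel genes were followed in *Aedes aegypti*, the yellow fever mosquito, in brain and in fat body. Sur was chosen for its large difference between genotypes in brain, so its brain values are a description and were not tested. The channels were chosen by annotation alone, as every gene whose description holds the words inward rectifier potassium channel. This gave 4 channel genes and, with Sur, 5 genes of the 19256 in the count table. The study compared wild-type mosquitoes of the Liverpool strain with mosquitoes mutant in AaegGr34, the gene of gustatory receptor 34, in each tissue. The 4 groups were wild-type brain, AaegGr34 brain, wild-type fat body and AaegGr34 fat body, with 3 libraries each and 12 in all. All mosquitoes were kept with constant access to sucrose. The sources used here do not give the mutant allele, the sex, the age, the feeding state at dissection or the number of animals per library, so p-values measure only how far these libraries spread.

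Inward rectifier potassium channels pass potassium into a cell more readily than out of it and hold the resting potential of neurons, glia and epithelia. ATP-sensitive channels are a class of them in which the pore is built from inward rectifier subunits and a sulfonylurea receptor, an ABC transporter that carries no cargo of its own, senses nucleotides and opens or closes the pore. In vertebrates this pairing ties membrane potential to the energy state of the cell, as in the insulin-secreting beta cell. In mosquitoes the inward rectifiers are best known from the Malpighian tubules, where they carry potassium into the epithelium during urine formation. The fat body combines roles of vertebrate liver and adipose tissue.

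On the AaegL5.0 assembly Sur spans chr2:312907331-313134735 on the plus strand, 227 kb with 25 exons. The only channel on the same chromosome is LOC5571654, listed as ATP-sensitive inward rectifier potassium channel 11 and as Kir3 channel protein, at chr2:300108915-300125281 on the plus strand with 5 exons. It lies 12.8 Mb before Sur. The other 3 channels are all listed as G protein-activated inward rectifier potassium channel 3 and sit together within 490 kb of chromosome 3. LOC5571228, also listed as Kir2B channel protein, is at chr3:50248667-50262977 on the plus strand with 3 exons. LOC5571227, with the aliases Kir2A-a, Kir2A-b and Kir2A-c, is at chr3:50280858-50360989 on the minus strand with 7 exons. LOC5571231, also listed as Kir1 channel protein, is at chr3:50360995-50738948 on the minus strand with 13 exons. Only 5 bases separate Kir2A from Kir1, and 17880 bases separate Kir2B from Kir2A. No annotated gene overlaps Sur, Kir2A or Kir2B. Kir1 holds a calcineurin catalytic subunit gene (LOC5571230) on the other strand, with 5022 to 9080 counts in the brain libraries, and a GLYR1 homolog (LOC5571238) on its own strand. Kir3 holds LOC110676682, which had 1 count in all. The sources used here do not say whether reads were assigned by strand, so counts of Kir1 are uncertain to that extent. Counts with a fraction occurred for Sur in 11 libraries, for Kir1 in 9, for Kir2A in 8, for Kir3 in 1 and for Kir2B in 0.

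The libraries held 18.5 M to 31.3 M counts. Genes varied less between brain libraries (common biological coefficient of variation 0.21) than between fat body libraries (0.406), so brain differences were measured more closely. Neuron markers held 0.487 to 0.608% of brain counts and 0.0575 to 0.14% of fat body counts. Photoreceptor markers held 22.7 to 27.2% of the counts of wild-type brain, 20.5 to 22.4% of mutant brain and at most 0.0933% of fat body. Fat body markers held 0.298 to 0.421% of the counts of wild-type fat body and 0.261 to 0.462% of mutant fat body. The Gr34 gene itself was detected at 24, 22 and 7 counts in the wild-type and at 6, 11 and 28 in the mutant libraries of brain. Fat body held 2, 4 and 16 (wild type) and 2, 11 and 2 counts (mutant), so the transcript does not check the genotype labels.

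In brain, Sur went from one of the least abundant to one of the more abundant of the 5 transcripts. The wild-type brain libraries held 41.5, 18.5 and 39.5 estimated counts, and the mutant brain libraries held 1307.5, 1156.5 and 1314.0. In TPM, a level scaled for transcript length and library size, these were 0.386, 0.240 and 0.534 against 19.55, 15.3 and 17.4. The lowest mutant library was far above the highest wild-type library, and the 3 mutant libraries lay close together. Of all genes tested in brain, 14.6% were higher in the mutant with no overlap of the groups in TPM. Group means were 0.387 ± 0.147 TPM in wild type and 17.4 ± 2.1 TPM in the mutant (SD, n = 3 each). The fitted log2 fold change, mutant over wild type, was 5.45 (SE 0.31), or 43.8-fold with a 95% interval of 26.6 to 72.1. Because Sur was chosen for this difference, the fold may be too high and the 95% coverage does not hold. By size it ranked 62nd of 11848 genes fitted in brain. Sur lay above 24.1% of the genes detected in wild-type brain and above 67.2% of those in mutant brain. As shares of counts, markers of some cell types also separated the genotypes in brain. The fat body list, 35 genes of which 0 were without counts in all libraries, held 0.0959, 0.125 and 0.13% of the counts of the wild-type brain libraries and 0.145, 0.141 and 0.153% of the mutant ones. Among its genes, transferrin (LOC5579417) and apolipophorin-3 (LOC5571084) overlapped between genotypes in TPM. The apolipophorins gene LOC5572681 did not, at 84.1, 125 and 115 TPM in wild-type and 152, 127 and 161 TPM in mutant brain. The summed share of the 38 photoreceptor genes was lower in every mutant library (20.5 to 22.4%) than in every wild-type library (22.7 to 27.2%). Most of the sum in TPM came from the opsin-1 gene LOC5567680. It had 267000, 232000 and 255000 TPM in wild-type brain and 196000, 217000 and 186000 TPM in mutant brain. Another opsin-1 gene (LOC5568060) and an arrestin (LOC5577143) overlapped between genotypes in TPM. The only tracheal marker, trachealess (LOC5565125), held 0.0018 to 0.00187% in the mutant against 0.00162 to 0.00172% in wild type. In TPM its genotypes overlapped, at 12.5, 11.2 and 11.6 in the mutant against 10.5, 11.3 and 10.8 in wild type. Neuron, glia, muscle, Malpighian tubule, gut and germline lists overlapped between genotypes. The part of these markers in the brain difference of Sur was not tested. In whole tissue, more cells that make a transcript and more transcript per cell cannot be told apart.

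**Figure D1:**
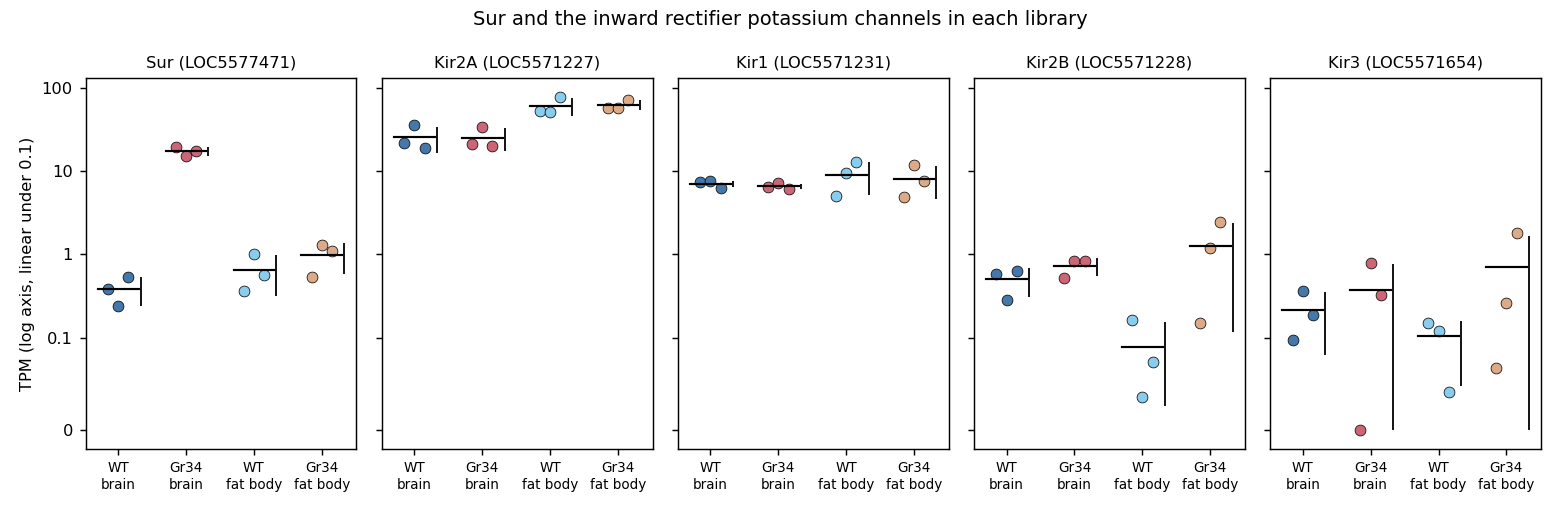
Level of each gene in TPM (log axis, linear under 0.1) in every library; points are libraries in replicate order, horizontal lines are group means and vertical lines are ± 1 SD, stopped at 0 (n = 3). Sur stands at 15.3 to 19.55 TPM in mutant brain and at or below 1.31 TPM in the other 9 libraries, while Kir2A and Kir1 are at like levels in both genotypes and Kir2B and Kir3 are low throughout.

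None of the channels was called different between genotypes in brain. The test was edgeR's quasi-likelihood F-test on all genes that passed a filter on low counts, and a gene was called at a Benjamini-Hochberg adjusted p under 0.05, as in every comparison below. Of the 4 channels, 3 passed the filter, and 0 of these were called by edgeR, by DESeq2 or at an unadjusted p under 0.05. Of all genes tested in brain, edgeR called 8.86% and DESeq2 13.8%, and 22.8% had an unadjusted p under 0.05. Kir2A, the most abundant channel, had 22.1, 35.6 and 18.75 TPM in wild-type brain and 21.2, 34.1 and 20.0 TPM in mutant brain. Replicate 2 was the highest in both genotypes and the groups overlapped throughout. Its log2 fold change was -0.02 (SE 0.27, adjusted p 0.985), with a 95% interval of 0.634- to 1.54-fold, so smaller differences could not be seen.

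Kir1 was the second channel in level and the steadiest member, with a coefficient of variation of 9.35% in wild-type and 8.19% in mutant brain. It had 7.32, 7.54 and 6.31 TPM in wild type and 6.48, 7.14 and 6.07 TPM in the mutant. Its log2 fold change was -0.12 (SE 0.11, edgeR adjusted p 0.587), and the interval of 0.775- to 1.1-fold was the narrowest of the channels. Kir2B was far rarer, at 20, 7 and 15 counts in the wild type and 11, 20 and 20 in the mutant. The groups overlapped, with a log2 fold change of 0.51 (SE 0.44, edgeR adjusted p 0.556) and an interval of 0.7- to 2.89-fold. Kir3, the channel whose listed name is that of an ATP-sensitive channel, was close to absent in both. Its counts were 3, 8 and 4 in the wild-type libraries and 0, 17 and 7 in the mutant libraries, and it did not pass the filter. The library with no count allows up to 0.15 CPM (3 counts of the total, counting error only). Fitted with no filter, Kir3 had a log2 fold change of 0.85 (SE 0.98, edgeR adjusted p 0.666), which turned to -0.29 without mutant brain replicate 2. A difference in Kir3 was not detectable at this depth.

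Set against the channels, the level of Sur was far higher in mutant brain while the channel total had a like range in both genotypes. The 4 channels summed to 25.9 to 43.8 TPM in wild-type brain and 27.2 to 42.8 TPM in mutant brain. Kir2A made 72.4 to 81.3% of that sum in wild type and 73.5 to 79.6% in the mutant. The ratio of Sur to the channel sum, both in TPM, was 0.0128, 0.00548 and 0.0206 in the wild-type brain libraries. In the mutant brain libraries it was 0.692, 0.358 and 0.64, the lowest value belonging to replicate 2, in which Kir2A was highest. Sur had rank 2 of the 5 genes in all 3 mutant brain libraries, behind Kir2A. In the wild-type brain libraries it had ranks 4, 5 and 4. TPM compares transcripts only, and says nothing of protein or of assembled channels.

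**Figure D2:**
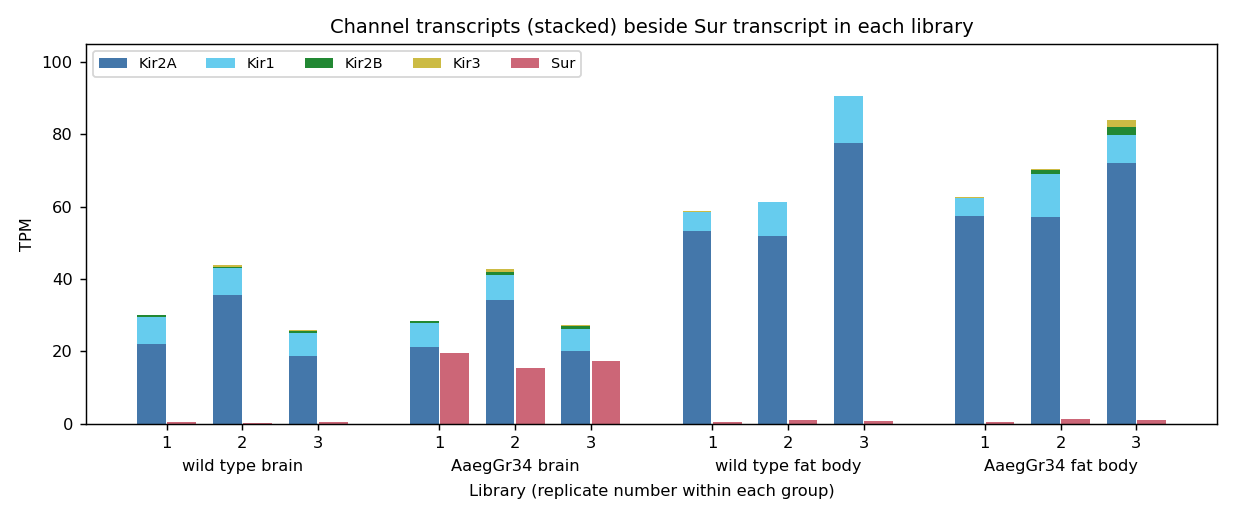
TPM in each of the 12 libraries, with the 4 channels stacked in the left bar and Sur in the right bar of each pair. The channel bars are of like height in both brain groups (25.9 to 43.8 TPM) and taller in fat body (58.7 to 90.6 TPM), and the Sur bar is tall in mutant brain alone.

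In fat body, which played no part in choosing it, Sur was low in both genotypes. The counts were 42.5, 87.5 and 48.5 in wild type and 55.5, 123.5 and 91.5 in the mutant. In TPM these were 0.365, 1.01 and 0.569 against 0.531, 1.31 and 1.11, with overlap between the groups and the second library highest in each. Group means were 0.646 ± 0.328 and 0.983 ± 0.404 TPM (SD, n = 3 each). The log2 fold change was 0.66 (SE 0.39), with an edgeR adjusted p of 0.892, where 0.234% of all genes tested in fat body were called. The 95% interval ran from 0.845- to 2.98-fold. An exact two-sided permutation test on log2(TPM + 0.1) gave p = 0.3, where 3 libraries against 3 cannot give less than 0.1. Over 15 alternative settings the log2 fold change ran from 0.27 to 1.01 and the adjusted p from 0.429 to 1.0. The genotype difference in fat body minus that in brain was -4.74 (SE 0.51) on the log2 scale, a description since the brain values chose the gene.

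Kir2A and Kir1 were not called between genotypes in fat body either. Kir2A had 53.3, 51.8 and 77.7 TPM in wild type and 57.4, 57.2 and 72.1 TPM in the mutant, with a log2 fold change of 0.16 (SE 0.38, edgeR adjusted p 1.0) and an interval of 0.605- to 2.05-fold. Kir1 had 5.05, 9.395 and 12.8 TPM in wild type and 4.94, 11.8 and 7.56 TPM in the mutant. Its log2 fold change was -0.09 (SE 0.21, edgeR adjusted p 1.0), with an interval of 0.665- to 1.33-fold. For both channels the genotypes overlapped in TPM. Of the 5 members, 3 passed the filter in fat body, and 0 were called by edgeR, by DESeq2 or at an unadjusted p under 0.05. Of all genes tested in fat body, DESeq2 called 2.92% and 7.85% had an unadjusted p under 0.05.

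The rare channels varied most between single fat body libraries. Kir2B had 6, 1 and 2 counts in the wild type and 5, 36 and 64 in the mutant. Mutant replicates 2 and 3 stood above all other fat body libraries, while mutant replicate 1 was within the range of wild type. Kir2B did not pass the filter. Fitted with no filter, its log2 fold change was 3.48 (SE 1.02) with an edgeR adjusted p of 0.277. DESeq2 with no filter gave 3.54 and an adjusted p of 0.038, and the authors' deposited table of DESeq2 results gives 3.53 and 0.0362. The exact permutation test on log2(TPM + 0.1) gave p = 0.2. Leaving out mutant replicate 3 lowered the no-filter value to 2.39 (edgeR adjusted p 0.758). The call thus depends on the tool. Kir3 had 5, 3 and 1 counts in the wild type and 2, 7 and 42.5 in the mutant, of which a single library was high. Its no-filter log2 fold change of 2.57 (SE 1.16, edgeR adjusted p 0.561) fell to 0.36 without mutant replicate 3.

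Gut markers, summed as a list, stood high in the same libraries. The 144 genes on the gut marker list, 17 of which had no count anywhere, held 0.139, 0.0759 and 0.0877% of the counts of the wild-type fat body libraries. In mutant fat body they held 0.058, 0.616 and 1.08%, so replicates 2 and 3 were high and replicate 1 was the lowest of the 6. A trypsin (LOC5569681), a digestive protease, stood at 472, 60.3 and 109 TPM in wild-type fat body and 5.23, 5070 and 6900 TPM in mutant fat body. Not every gene on the list had this order. A maltase (LOC5572111) stood at 0.41, 1.76 and 0.36 TPM in wild type and 3.1, 12.1 and 0.248 TPM in the mutant. The part of gut RNA in the Kir2B and Kir3 counts was not tested. Ovary and germline markers followed another order, at 0.0942, 0.423 and 0.148% in the mutant libraries and 0.0683, 0.257 and 0.346% in wild type. Sur was also highest in mutant replicates 2 and 3 (1.31 and 1.11 TPM), next to 1.01 TPM in wild-type replicate 2. Kir2A was highest in wild-type replicate 3 in TPM, but in mutant replicate 1 (173.9 CPM) relative to TMM-scaled library sizes.

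**Figure D3:**
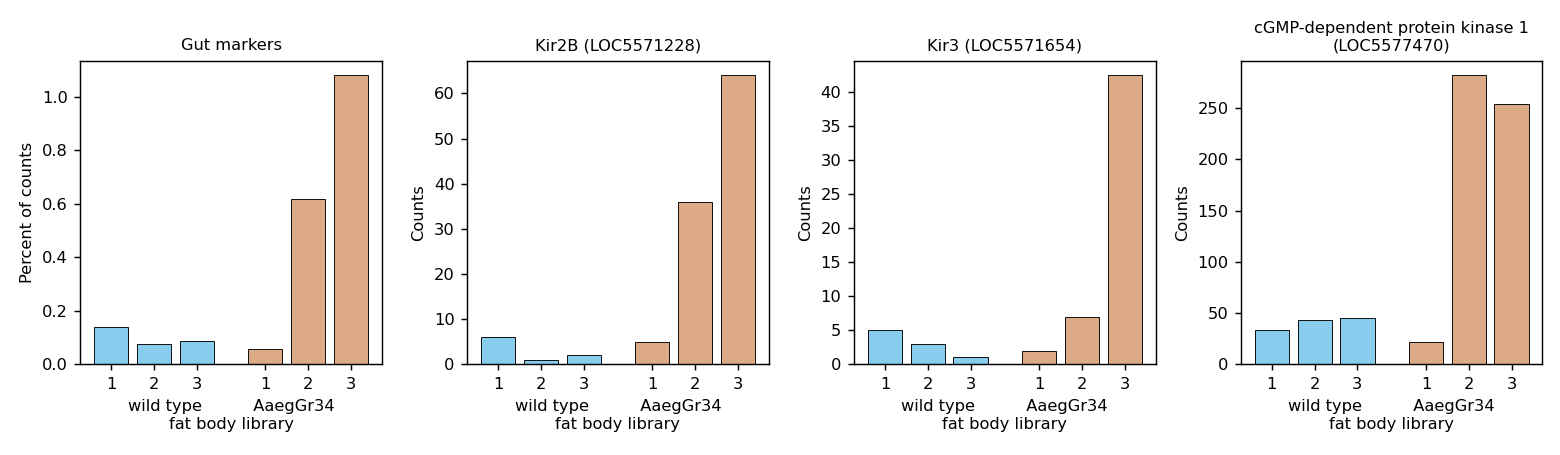
Gut markers as a percent of counts and the counts of Kir2B, Kir3 and cGMP-dependent protein kinase 1 (the gene next after Sur) in the 6 fat body libraries; each bar is 1 library. Mutant replicate 1 is as low as wild type in all 4 panels, and replicates 2 and 3 are high in all but Kir3, where replicate 3 alone is high.

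Between tissues, the clearest result was a higher level of Kir2A in fat body. In wild type the log2 difference, fat body minus brain, was 1.77 (SE 0.29, edgeR adjusted p 0.00152), or 3.4-fold with an interval of 2.12 to 5.47. In the mutant it was 1.94 (SE 0.36, edgeR adjusted p 0.00246), or 3.84-fold with an interval of 2.15 to 6.85. Every fat body library lay above every brain library of the same genotype in TPM. The background is high here, since 64.7% of all genes tested differed between tissues in wild type and 64.5% in the mutant, with 32.0% and 32.8% higher in fat body. The share of genes higher in fat body with no overlap in TPM was 21.5% in wild type and 20.9% in the mutant. The Kir2A call held in 11 of 11 alternatives in each genotype. Kir2A lay above 76.3% of detected genes in wild-type brain and 91.9% in wild-type fat body.

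Kir1 differed less and less surely. Its log2 difference was 0.76 (SE 0.18, edgeR adjusted p 0.00763) in wild type and 0.78 (SE 0.17, edgeR adjusted p 0.00547) in the mutant. In TPM the tissues overlapped in both genotypes, and the call was lost with scaling by library size only (adjusted p 0.111 in each genotype). With limma on log2(TPM + 1) the difference was 0.25 in wild type (adjusted p 0.577) and 0.20 in the mutant (adjusted p 0.652), while the median of all genes moved to -0.41 and -0.43. For Kir2B no difference between tissues was called with all libraries. In wild type its TPM was lower in fat body than in brain with no overlap (0.161, 0.0360 and 0.0735 against 0.583, 0.285 and 0.636), but it did not pass the filter. Such genes, lower in fat body with no overlap, made up 43.6% of all genes tested. Without wild-type fat body replicate 1, the highest of that group, it passed, with a log2 difference of -2.93 (edgeR adjusted p 0.0103). Kir2B passed there only through the brain libraries, where it was higher, so this p is no support for a tissue difference. It also passed in 3 other fits without a library, again through brain libraries, with edgeR adjusted p from 0.0696 to 0.197. In the mutant the log2 difference was 1.22 (SE 0.78, edgeR adjusted p 0.203), and 1.69 without mutant fat body replicate 1 (adjusted p 0.0383), the library low in gut markers.

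For Sur the tissue order turned with genotype, which is a description. In wild type it was slightly higher in fat body (log2 difference 1.14, SE 0.48), and the tissues overlapped in TPM. In the mutant it was 12.5-fold lower in fat body than in brain (log2 difference -3.65, SE 0.22). Sur lay above 32.6% of detected genes in wild-type and 35.4% in mutant fat body. By level the order of the members in wild-type brain was Kir2A, Kir1, Kir2B, Sur and Kir3, and the last 3 did not differ beyond their spread (0.501 ± 0.189, 0.387 ± 0.147 and 0.216 ± 0.134 TPM). In mutant brain the order was Kir2A, Sur, Kir1, Kir2B and Kir3. In the fat body libraries Kir2A and Kir1 were again at ranks 1 and 2 and Sur at rank 3, except in mutant replicate 3, where Sur had rank 5 behind Kir2B and Kir3.

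The genotype difference itself was compared between tissues in a fit of all 12 libraries, in which 0.467% of all genes tested were called. None of the 3 channels that passed the filter was called there. The log2 difference of differences, fat body minus brain, was 0.24 (SE 0.48, edgeR adjusted p 1.0) for Kir2A and 0.08 (SE 0.21, edgeR adjusted p 1.0) for Kir1. For Kir2B it was 3.07 (SE 1.2, edgeR adjusted p 0.44), with high counts in mutant fat body replicates 2 and 3 alone.

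The genes around Sur were read to see whether the brain difference was shared along the chromosome. Of the 10 nearest genes, 5 on each side, 7 were tested in brain and 2 were called, both higher in the mutant, where 4.6% of all genes tested were called higher. LOC110675192 is an uncharacterized gene on the opposite strand at chr2:312741133-312781459, 126 kb before Sur. Its counts were 2, 4 and 1 in the wild-type and 71.17, 69 and 61 in the mutant brain libraries, which did not overlap. Its log2 fold change was 5.0 (SE 0.40, edgeR adjusted p 0.00088), and the call held in 15 of 15 alternatives. The gene passed the filter in brain only through the mutant libraries, where it was high, so this p is not separate support for the difference. In fat body it had 9, 18.67 and 4 counts in the wild type and 5, 11 and 12.67 in the mutant, which overlapped, and it did not pass the filter. Like Sur, this gene was high in mutant brain and low in the other 3 groups.

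The gene next after Sur, 72.2 kb away, is LOC5577470, listed as a cGMP-dependent protein kinase. It rose by 1.19 on the log2 scale in mutant brain (SE 0.27, edgeR adjusted p 0.0373), from 0.332 to 0.341 TPM in wild type to 0.650 to 0.883 TPM in the mutant. The call was lost in 11 of 15 alternatives, including without each brain library in turn (adjusted p 0.0541 to 0.153). In fat body it had 33, 43 and 45 counts in the wild type and 22, 282 and 254 in the mutant (log2 fold change 2.17, edgeR adjusted p 0.455), high in the replicates with high gut markers. The gene between Sur and LOC110675192, LOC110676725, had a log2 fold change of 0.84 in brain (SE 0.30, edgeR adjusted p 0.146). Farther off, LOC5568981 and LOC110676724 before Sur had log2 fold changes of 0.06 and -0.04, and LOC5563749 and LOC5577048 after it had 0.68 and 0.49; none was called. The gustatory receptor gene LOC23687743, LOC5570300 and LOC110676726 had too few counts to test in either tissue.

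A wider window of 1.5 Mb on each side, added after the data were seen, held 30 other genes. Of 22 tested in brain, 3 were higher and 2 lower in the mutant, with a median log2 fold change of 0.05 (all genes 0.01), where 8.86% of all genes tested were called. At an unadjusted p under 0.05 there were 8 (22.8% of all genes), and DESeq2 called 5 of the genes in the window (13.8% of all genes). Whether the window holds more called genes than other windows was not tested. In fat body 0 of 16 were called by edgeR or DESeq2, with 2 at an unadjusted p under 0.05. The lower gene with the larger difference was LOC110675755, an uncharacterized gene 567.6 kb before Sur. Wild-type brain libraries gave it 27.03, 19.08 and 20.48 counts and the 3 mutant libraries none. It was at least 6.19-fold lower with 3 counts taken for each empty library (edgeR adjusted p 0.00684). It passed the filter only through the wild-type libraries, so this p is not separate support for the difference. The others called were LOC5568985, a coiled-coil and C2 domain gene that fell by 1.00 on the log2 scale (edgeR adjusted p 0.0407, lost in 10 of 15 alternatives), and LOC110676728, uncharacterized, which rose by 2.19 (edgeR adjusted p 0.0196, lost in 4 of 15). Called genes in both directions thus lay among genes that were not called, and Sur and LOC110675192 stood above all others in the window.

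**Figure D4:**
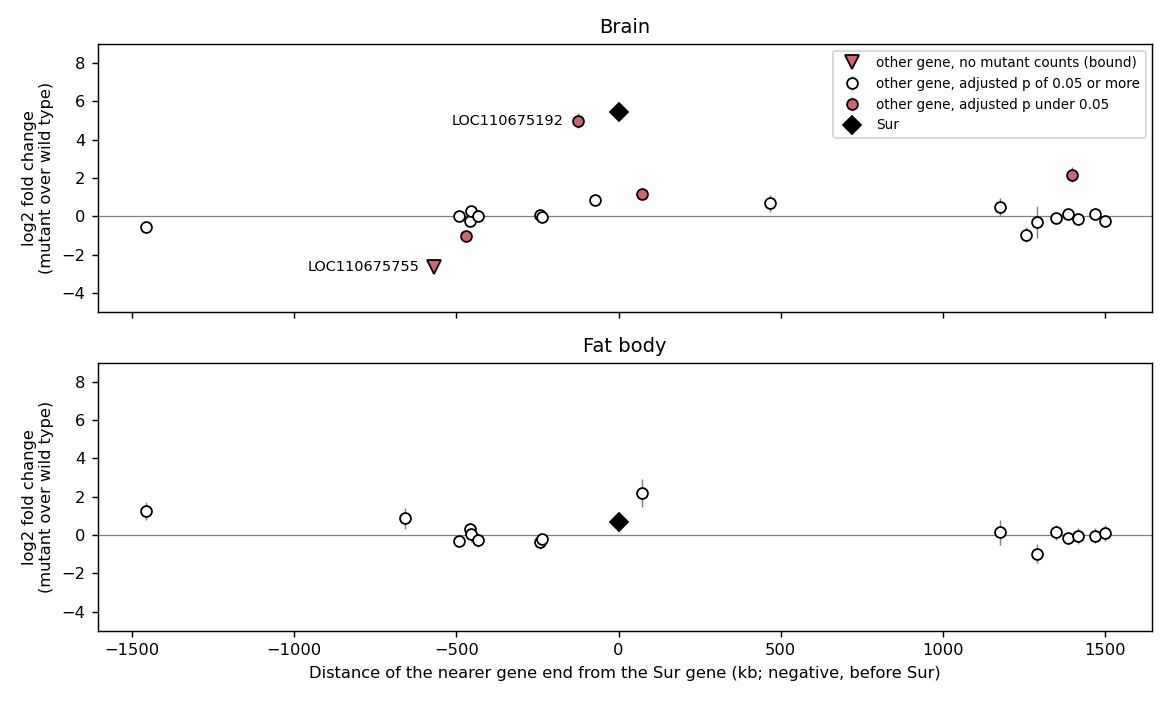
Log2 fold change, mutant over wild type, against distance from the Sur gene in kb for the tested genes within 1.5 Mb, in brain (top) and fat body (bottom); points are genes, vertical lines are ± 1 SE, and the triangle is a bound for a gene with no mutant counts. In brain Sur (5.45) and LOC110675192 (5.0) stand far above the rest, and in fat body no gene is called.

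Genes whose pattern was most like that of Sur were ranked by Pearson's r with Sur over the 12 libraries in log2(CPM + 1), among 12858 genes. These values describe the libraries and carry no test, since all genes share the same libraries and the brain contrast chose Sur. The neighbour LOC110675192 came first (r = 0.974). Next came LOC110677708 (0.968), the zinc finger protein 99 gene LOC5571247 (0.968), LOC110677107 (0.964) and LOC110675653 (0.958), of which all but the zinc finger gene are uncharacterized. They lie on chromosomes 3, 3, 2 and 1. An r above 0.9 was found for 23 genes and an r above 0.95 for 9. LOC5571247 was counted 637, 501 and 488 times in the wild-type and 3334, 3330 and 2725 times in the mutant libraries of brain. In fat body it had 404, 525.5 and 664 counts in the wild type and 646, 1311 and 906 in the mutant. In CPM these were 23.57, 25.09 and 26.21 against 45.69, 44.89 and 54.78, with no overlap, while the groups overlapped in TPM. LOC5571247 was thus higher in CPM in mutant fat body too, but was not called there (log2 fold change 0.92). LOC110677708 had no counts in wild-type brain, against 30, 22.5 and 25.5 in the mutant. The genes least like Sur were LOC5578744 (-0.930), LOC5578332 (-0.918) and LOC5580285 (-0.888), all uncharacterized. LOC5578744 was the reverse case, with 141.5, 148 and 143 counts in wild-type brain against 0, 4 and 0 in the mutant.

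None of the channels was near Sur in this ranking. Kir2B had r = 0.213 and rank 4589, Kir2A had r = -0.369 and rank 11017, and Kir1 had r = -0.473 and rank 12094. Kir3 did not pass the filter of the 12-library fit.

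**Figure D5:**
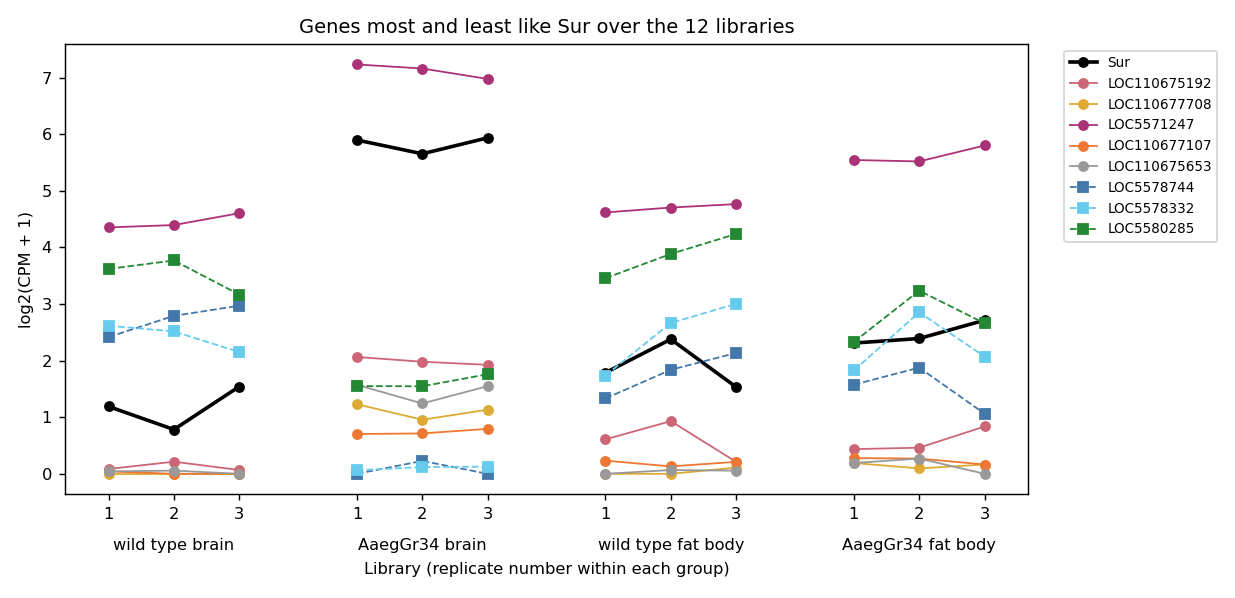
Level in log2(CPM + 1) of Sur (black), the 5 genes most like it (circles) and the 3 least like it (squares) in each of the 12 libraries, with lines joining libraries of a group for reading only. The circles are highest in mutant brain and the squares are lowest there.

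Related gene lists were read for the same comparisons. The counts in brain stand against a background of 8.86% of all genes called by edgeR, 13.8% called by DESeq2 and 22.8% with an unadjusted p under 0.05, and those in fat body against 0.234%, 2.92% and 7.85%. Other potassium channels, which repolarise neurons and set their firing, had 29 genes in the list. Of 26 tested in brain, 0 were called by edgeR, with 5 at an unadjusted p under 0.05 and 3 called lower by DESeq2, and the median log2 fold change was -0.09 (all genes 0.01). In fat body 0 of 19 were called by edgeR or DESeq2, with 2 at an unadjusted p under 0.05. Between tissues 23 of 26 were lower in fat body and 0 higher in each genotype (median -4.00 in wild type and -3.60 in the mutant, against 0.02 and 0.06 for all genes), where 32.7% and 31.6% of all genes tested were called lower. Kir2A was called in the other direction. The most abundant of them, LOC5571255, a voltage-gated channel of subfamily H, stood at 48.5 ± 14.2 TPM in wild-type brain and 0.671 ± 0.382 TPM in wild-type fat body (SD, n = 3 each).

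Other ABCC transporters, the family to which Sur belongs and which mostly export conjugated compounds, had log2 fold changes from -0.14 to 0.77 in brain. Of 13 tested there, 0 were called by edgeR, with 2 at an unadjusted p under 0.05 and 1 called higher by DESeq2. With a replicate block in the edgeR fit 1 was called higher. In fat body 0 of 14 were called by edgeR or DESeq2, with 1 at an unadjusted p under 0.05. The most abundant, LOC5578230, was at 17.8 ± 5.4 TPM in wild-type and 16.25 ± 2.12 TPM in mutant brain. Sur in mutant brain thus reached the brain level of LOC5578230. Whether another gene of the list was more abundant in brain is not shown here.

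Sodium and potassium pumps with cation chloride cotransporters, which build the potassium gradient, had 0 of 10 called in brain (1 at an unadjusted p under 0.05, 1 lower by DESeq2) and 0 of 10 in fat body (0 and 0). The alpha subunit of the sodium pump (LOC5575790) stood at 862.5 ± 151.1 TPM in wild-type and 875 ± 110.5 TPM in mutant brain. Of 13 G protein subunit genes, whose beta and gamma subunits open G protein-gated inward rectifiers in vertebrates, 0 were called in brain by edgeR, with 3 at an unadjusted p under 0.05 and 2 called higher by DESeq2. In fat body 0 of 12 were called by either tool, with 0 at an unadjusted p under 0.05. The most abundant, LOC5568246, listed as subunit gamma-e, was at 671 ± 99 TPM in wild-type and 516 ± 36 TPM in mutant brain. In TPM it was lower in every mutant than in every wild-type brain library, and it was not called (log2 fold change -0.41, edgeR adjusted p 0.175).

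The V-ATPase, the proton pump that drives potassium transport in Malpighian tubules, had 1 of 19 tested genes called higher in brain, where 4.6% of all genes tested were called higher, and 0 lower. This was subunit d 1 (LOC5574244), which is listed on unplaced sequence (Un) rather than on a chromosome. It had 25.8, 30.8 and 29.2 TPM in wild-type and 98.3, 95.9 and 71.6 TPM in mutant brain. Some of its counts had a fraction, and the treatment of multi-mapped reads is not given, so its level is uncertain to that extent. Its log2 fold change was 1.61 (SE 0.13, edgeR adjusted p 0.000945), and the call held in 15 of 15 alternatives. In fat body, where 0 of 19 were called, it had 10.6, 14.8 and 12.5 TPM in wild type and 36.9, 42.6 and 51.7 TPM in the mutant. These groups did not overlap, as for 4.53% of all genes tested there that were higher in the mutant. The log2 fold change was 1.89 (SE 0.35, edgeR adjusted p 0.103), and it was called by DESeq2 (adjusted p 0.000111) and in a fit of all 12 libraries (0.00555). At an unadjusted p under 0.05 there were 3 V-ATPase genes in each tissue. No other gene of the related lists was called between genotypes by edgeR with all libraries, TMM scaling and no block. Without mutant brain replicate 3, edgeR also called 1 other potassium channel lower, 1 G protein subunit gene higher and 1 further V-ATPase gene higher in brain, and with DESeq2 size factors it called 1 V-ATPase gene lower.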

How the data were processed

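Per the labels' protocols, the 12 libraries were made from fragmented polyA RNA with a NEBNext Ultra II kit and random primers. The submitters' processing notes name STAR, featureCounts of the Subread package, DESeq2 and FastQC. The sources used here do not give versions, the genome build, strand handling or the treatment of multi-mapped reads. The authors deposited estimated counts per gene, of which 25.4% were not whole, and TPM values. Per the file headers, the authors' deposited DESeq2 tables list for each gene the p-values, a score of the test, a log2 fold change with its error and a normalized mean (signal). They are quoted only where named.

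Of 19256 genes, 18399 matched the AaegL5.0 reference gene table, 18363 with the same start and end, including all 5 members. Counts were rounded and fitted in R 4.3.3 with edgeR 4.0.16 (filterByExpr with a minimum count of 10 and total of 15, TMM scaling, robust quasi-likelihood F-test, two-sided, Benjamini-Hochberg adjustment over all genes tested, threshold 0.05). Each comparison used its own 6 libraries, and the genotype difference in fat body minus that in brain all 12. The SE is the log2 fold change divided by the square root of F, and 95% intervals use the t distribution with edgeR's degrees of freedom. CPM are counts relative to TMM-scaled library sizes. Alternatives were DESeq2 1.42.0, limma 3.58.1 on log2(TPM + 1) and log2(TPM + 0.1), DESeq2 size factors, library size only, no filter, a single fit of all 12 libraries, a replicate block and each library left out. The newer quasi-likelihood method, the no-filter fits of rare channels with DESeq2 or without each library, and the window around Sur were added after the data were seen.

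Simulated data with 200 changed genes, drawn from genes with a mean above 5 CPM, were used to test the fits. Sur in fat body, Kir2B and Kir3 lay under that level, so the recovery rates do not cover them. Genes changed by 2 on the log2 scale were recovered in 95.7% of cases in the brain comparison (11848 genes) and 69% in the fat body comparison (11558 genes), and genes changed by 1 in 78.2% and 5.08%. The members and gene lists were chosen with earlier results of these data known. Genes named are the members, genes that overlap them, the 5 nearest genes on each side of Sur, the 5 most and 3 least correlated with Sur, and from each list, defined by words in gene descriptions, the most abundant gene and, by adjusted p, the first 2 called genes per direction and tissue. Intervals cover counting error and library spread only, floors cover counting error only, and reads carry no molecular identifiers.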

Additional observations from a re-analysis of the deposited data

How the results depend on the processing

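Counts of called genes depended on the method. In brain DESeq2 called 1629 genes, a fit of all 12 libraries 343, and fits without 1 library 405 to 979 (1050 with all; lowest without mutant replicate 1). In fat body, where 27 were called, library size only gave 1, DESeq2 337, no filter 55, limma on log2(TPM + 0.1) 50, all 12 libraries 362, the newer quasi-likelihood method 60, and fits without 1 library 0 to 37. For the genotype difference in fat body minus that in brain, with 60 called, DESeq2 gave 270 and fits without 1 library 10 to 83. The cause was not tested.

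No channel was called between genotypes under any alternative that kept the filter on low counts, and small fold changes near 0 turned sign. Kir2A in brain (-0.02) became 0.00 (0.004951) with library size only and ran from -0.32 to 0.24 without 1 library. In fat body Kir2A ran from -0.03788 to 0.44 and Kir1 from -0.13 to 0.01 (0.005164) without 1 library. Their genotype differences in fat body minus those in brain ran from -0.11 to 0.53 and from -0.07571 to 0.16. Kir3 in brain, fitted with no filter, ran from -0.29 to 1.42. LOC110676724 in brain ran from -0.10 to 0.05869, and LOC5577048 in fat body from -0.44 to 0.62. The brain difference of Sur ran from 5.16 to 5.79 without 1 library and was 3.73 with limma on log2(TPM + 1), where the pseudocount exceeds its wild-type level. The depth limits Kir2B and Kir3, with 64 and 42.5 counts at most.

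Replicate numbers were not shown to pair the libraries. For this, the deviation of each gene from its group mean in log2 CPM was correlated between wild-type and mutant libraries. Same-numbered libraries gave r of -0.00225, 0.135 and 0.241 in brain and of 0.202, 0.358 and -0.264 in fat body. Differently numbered libraries gave -0.269 to 0.225 in brain and -0.556 to 0.465 in fat body. With a replicate block 54 genes were called in fat body and 18 for the genotype difference in fat body minus that in brain, and LOC5577470 (adjusted p 0.0898) and LOC5568985 (0.0736) lost their brain calls; no call of a channel changed.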
